A study of Mus musculus with 47 samples.

Results

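Loss of H3K27me3 from liver chromatin was described for the regions that the mark occupied in control liver of both sexes and left in both E1/E2-KO lists. The male and female control lists were merged on the 19 autosomes, which gave 17380 regions. Of these, 11857 overlapped both control lists and are called shared regions. The members were chosen by their absence from the E1/E2-KO lists, since a shared region counted as lost when no region of the male or female E1/E2-KO list overlapped it by 1 bp. By this rule 1271 of the 11857 shared regions (10.7%) were lost in both lists, 8915 were kept in both, 449 were lost in the male list only and 1222 in the female list only. The loss itself is what selected these regions and is not a result.

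The study mapped H3K27me3, H3K27ac and H3K4me1 by ChIP-seq in mouse liver of both sexes at an age of 7 weeks. Control mice were floxed littermates (Ezh2 f/f), and E1/E2-KO mice (Ezh1-/-, EZH2f/f, AC+) lacked Ezh1 in all cells and carried the Alb-Cre (AC) transgene, which inactivates Ezh2 in hepatocytes. All groups therefore carried the floxed Ezh2 alleles, and endothelial cells, Kupffer cells and stellate cells of the E1/E2-KO livers still had Ezh2. The sample records list 47 samples, 4 for each mark and group, or 3 in the case of E1/E2-KO female H3K4me1, but the reads of a group were pooled before peaks were called. Each mark and group thus has 1 list of positions, without scores, depths or replicates. Since the spread between livers is unknown, no group was tested against another, and the exact 95% binomial intervals given below cover counting error only and treat neighbouring regions as independent. In whole liver, a mark on fewer cells and less of the mark per cell cannot be told apart. The lists show no transcripts, so Ezh1 and Ezh2 RNA could not be used to check the labels.

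Ezh1 and Ezh2 are the alternative catalytic subunits of Polycomb repressive complex 2, which trimethylates lysine 27 of histone H3. Broad domains of H3K27me3 cover silent genes, among them developmental regulators and, in the liver, genes expressed in one sex. The same lysine cannot carry an acetyl and a methyl group at once, and H3K27ac marks active promoters and enhancers, whereas H3K4me1 marks enhancers that may be active or not.

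The sequences that follow are from promoters with H3K27ac called within 1 kb of the gene start in E1/E2-KO liver and not in control liver. A pair of promoters without a called H3K27ac peak within 1 kb of the start is given for contrast. A total of 5 protein-coding genes started in a lost region and had an H3K27ac peak within 1 kb of the start in both E1/E2-KO lists and in neither control list, which is 1.56% of the 320 starts in lost regions, near the 1.31% of all starts. The count was 2 to 8 under other processing choices, and 3 of 11 such choices moved it by over 1.5 times. The 5 genes are Hnf4g, a nuclear receptor related to Hnf4a (chr3:3507780-3508079, plus strand), Hist1h1b, a linker histone (chr13:21872445-21872744, minus strand), Ank3, an ankyrin that anchors membrane proteins (chr10:68996720-68997019, plus strand), 2310014H01Rik (chr17:36002288-36002587, plus strand) and Hist1h3i, a histone H3 gene (chr13:21875217-21875516, minus strand). Pecam1, an endothelial adhesion molecule (chr11:106611893-106612192, minus strand), and Sult2a6, a sulfotransferase of female liver (chr7:14840167-14840466, minus strand), are marker genes that started in lost regions and had no H3K27ac peak within 1 kb of the start in any group. Each window runs from 250 bases before to 50 bases after the gene start of the GENCODE M1 annotation and was read from the mm9 (NCBIM37) genome. A peak within 1 kb of the start need not overlap the printed bases, and the male and female peaks need not coincide. Capitals mark matches, on either strand, to TTCNNNGAA (the Stat palindrome), GAGGAAGT (an Ets site), CAAAGTCCA (an Hnf4 site) or TATAAA.
Hnf4g: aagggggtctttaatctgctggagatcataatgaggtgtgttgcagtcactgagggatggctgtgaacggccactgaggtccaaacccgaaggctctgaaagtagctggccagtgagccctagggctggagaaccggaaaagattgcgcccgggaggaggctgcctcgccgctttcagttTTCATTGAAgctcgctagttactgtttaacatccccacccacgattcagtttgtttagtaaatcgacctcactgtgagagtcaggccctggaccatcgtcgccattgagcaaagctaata
Hist1h1b: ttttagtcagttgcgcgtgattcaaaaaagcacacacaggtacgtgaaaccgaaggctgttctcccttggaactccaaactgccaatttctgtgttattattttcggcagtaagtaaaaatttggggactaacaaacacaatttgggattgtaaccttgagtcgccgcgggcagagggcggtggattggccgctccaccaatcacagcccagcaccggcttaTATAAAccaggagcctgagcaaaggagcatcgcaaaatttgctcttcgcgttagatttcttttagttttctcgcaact
Ank3: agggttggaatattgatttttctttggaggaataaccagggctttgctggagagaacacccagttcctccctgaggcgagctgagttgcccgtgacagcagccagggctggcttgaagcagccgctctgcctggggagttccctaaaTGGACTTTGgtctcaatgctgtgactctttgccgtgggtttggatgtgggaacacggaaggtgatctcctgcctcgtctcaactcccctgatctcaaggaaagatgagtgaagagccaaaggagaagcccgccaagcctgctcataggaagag
2310014H01Rik: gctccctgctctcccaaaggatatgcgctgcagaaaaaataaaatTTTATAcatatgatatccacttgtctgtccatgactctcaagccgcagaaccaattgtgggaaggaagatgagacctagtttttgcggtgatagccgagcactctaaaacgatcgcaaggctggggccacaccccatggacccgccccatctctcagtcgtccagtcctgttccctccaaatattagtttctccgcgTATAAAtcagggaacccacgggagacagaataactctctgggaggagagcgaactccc
Hist1h3i: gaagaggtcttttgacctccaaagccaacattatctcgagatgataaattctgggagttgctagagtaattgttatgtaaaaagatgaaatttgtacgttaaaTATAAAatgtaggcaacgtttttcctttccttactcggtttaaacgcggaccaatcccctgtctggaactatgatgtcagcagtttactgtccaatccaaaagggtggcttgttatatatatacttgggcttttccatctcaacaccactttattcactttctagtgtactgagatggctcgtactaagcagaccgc
Pecam1: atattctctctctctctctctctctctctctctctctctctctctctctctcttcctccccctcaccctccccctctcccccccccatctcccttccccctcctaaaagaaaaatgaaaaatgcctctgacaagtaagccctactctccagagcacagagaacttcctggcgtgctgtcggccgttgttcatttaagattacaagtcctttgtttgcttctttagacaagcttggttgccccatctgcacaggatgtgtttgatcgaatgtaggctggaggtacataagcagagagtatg
Sult2a6: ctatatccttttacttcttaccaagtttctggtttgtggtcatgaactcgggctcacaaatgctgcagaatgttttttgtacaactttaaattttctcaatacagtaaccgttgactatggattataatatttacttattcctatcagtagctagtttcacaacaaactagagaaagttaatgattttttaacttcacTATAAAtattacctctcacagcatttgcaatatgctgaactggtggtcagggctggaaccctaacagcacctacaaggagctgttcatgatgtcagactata

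TTCNNNGAA occurred once in the window of Hnf4g and CAAAGTCCA once in that of Ank3, on the minus strand. TATAAA occurred in the windows of Hist1h1b, Hist1h3i, 2310014H01Rik and Sult2a6, and the window of Pecam1 held no match. Of the 320 protein-coding gene starts in lost regions, 11.9% had TTCNNNGAA in this window (exact 95% interval 8.54 to 15.9%), beside 6.79% of the 6919 starts in kept regions and 7.89% of all 21418 autosomal protein-coding starts. For TATAAA the shares were 14.4%, 11.3% and 13.5% in the same order, for GAGGAAGT 2.50%, 2.70% and 3.10%, and for CAAAGTCCA 0.312%, 0.405% and 0.467%. Only the TTCNNNGAA share of the lost regions lay apart from that of all genes by more than its interval. GC content was similar in the 3 sets of promoters, with medians of 55.0% at starts in lost regions, 57.0% in kept regions and 55.3% over all genes. Windows with at least 50% GC and an observed to expected CpG ratio of at least 0.6 made up 39.1% (33.7 to 44.6%), 37.7% and 42.8%.

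New H3K27ac also appeared away from promoters. The next sequences are the central 200 bases of the widest stretches shared by a male and a female E1/E2-KO peak, with no peak in either control list, in the lost regions of Pecam1 and Tgfbr3, which were picked after their values were seen. The stretch in Pecam1 (window chr11:106560065-106560264) was 213 bp wide and that in Tgfbr3, which encodes betaglycan (chr5:107680960-107681159), was 436 bp wide. Both lie in the gene span without touching an exon, and neither window matched a motif. Both are written along the plus strand of mm9.
Pecam1 intron: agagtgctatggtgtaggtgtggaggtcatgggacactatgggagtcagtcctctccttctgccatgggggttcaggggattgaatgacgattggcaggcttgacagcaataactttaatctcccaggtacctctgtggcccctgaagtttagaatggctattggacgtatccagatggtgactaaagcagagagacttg
Tgfbr3 intron: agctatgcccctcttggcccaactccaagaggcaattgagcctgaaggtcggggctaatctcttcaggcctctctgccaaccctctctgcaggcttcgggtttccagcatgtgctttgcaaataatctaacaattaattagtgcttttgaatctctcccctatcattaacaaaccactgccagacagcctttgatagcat

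The lost regions were narrow parts of the H3K27me3 landscape. Their width ranged from 5200 to 239200 bp with a median of 24400 bp and quartiles of 18000 and 34800 bp, beside a median of 49200 bp for kept regions. They added up to 36.6 Mb, which is 5.09% of the bases of the shared regions. The share of regions lost was lower with each step in width, from 40.9% (31.8 to 50.4%) of those under 10 kb to 28.1% (25.7 to 30.6%) at 10 to 20 kb, 15.2% (14.1 to 16.3%) at 20 to 40 kb, 4.98% (4.31 to 5.73%) at 40 to 80 kb and 0.939% (0.596 to 1.41%) at 80 kb or more. A region of any width counted as kept from a single overlap of 1 bp, and the part of this rule in the trend was not tested.

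**Figure D1:**
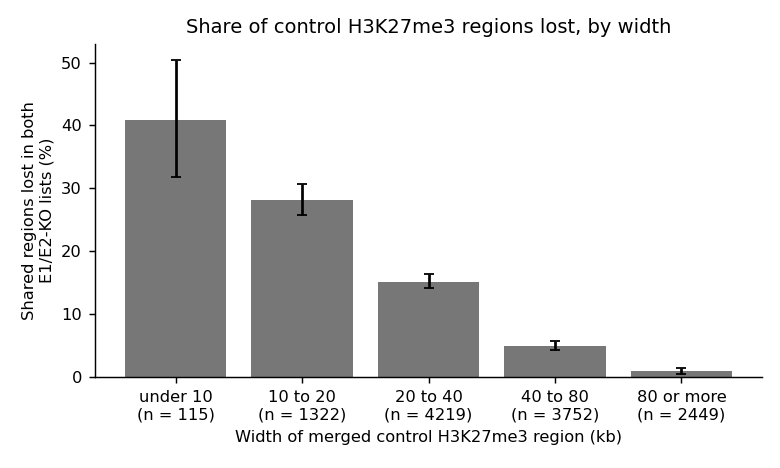
Bars give the percentage of shared control H3K27me3 regions that were lost in both E1/E2-KO lists, by width of the merged region in kb, with exact 95% binomial intervals as error bars and the number of shared regions under each bar. The share runs from 40.9% of the narrowest to 0.939% of the widest regions.

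The lost regions lay on every autosome. The share of shared regions that was lost ranged from 6.26% on chromosome 9 (4.51 to 8.43%) and 7.24% on chromosome 11 to 13.5% on chromosome 10 (10.8 to 16.5%). The median distance from a lost region to the nearest region of either E1/E2-KO list was 27600 bp, and 145 (11.4%) had one within 5 kb. The lost region nearest to an E1/E2-KO region, chr15:36891601-36904800, touched one without sharing a base, and chr3:145608001-145620000 and chr12:107941201-107959600 each lay 400 bp away. Just outside the rule, 5 shared regions overlapped one E1/E2-KO list by 400 bp, a single SICER window, and the other not at all. The narrowest of them were chr4:133443201-133464800 and chr16:58683201-58713600, which overlapped the male list, and chr6:60796401-60823200, which overlapped the female list.

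In control liver the male list covered more of these regions than the female list. The male list covered a median of 100% of the region and 22000 bp, and the female list 79.5% and 17200 bp. The covered length was greater in males in 889 of the 1271 lost regions (69.9%), greater in females in 327 and equal in 55. Kept regions showed the same direction, with 70.7% covered more in males, and medians of 99.1% and 89.2%. The female list covered under 50% of the merged region in 205 lost regions (16.1%) and in 7.34% of kept regions.

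Lost regions were poorer in genes, GC and CpG than kept ones. No protein-coding gene overlapped 677 of the 1271 lost regions (53.3%, 50.5 to 56.0%), beside 32.6% of kept regions. A further 248 (19.5%, 17.4 to 21.8%) lay wholly inside 1 protein-coding gene, beside 11.4%. A protein-coding gene started in 256 (20.1%, 18 to 22.5%), beside 48.8% of kept regions. By bases, coding exons made up 1.11% of the lost and 1.58% of the kept regions, other exons 1.58% and 1.84%, introns 34.7% and 37.5%, and sequence outside protein-coding genes 62.7% and 59.0%. The median GC content of a lost region was 41.3% (quartiles 38.8 and 44.2%), whereas kept regions had 44.1% (41.7 and 46.8%). Over all their bases, lost regions had 8.06 CpG per kb, close to the 8.51 of all autosomes, and kept regions had 10.6. Kept regions are wider, and the part of width in these differences was not tested.

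The 10 widest lost regions held few protein-coding gene starts. The widest, chr10:36909601-37148800, spanned 239200 bp and overlapped no protein-coding gene, as did chr1:76824001-76985200, chr1:76620801-76736400 and chr13:28581601-28689200. The others lay in Ptprm, a receptor tyrosine phosphatase (chr17:67356401-67493600), in Bmper, a regulator of BMP signalling (chr9:23097601-23218400), in Dab1 (chr4:103648401-103762400) and in Fhit (chr14:10396001-10492000), or held Pecam1 (chr11:106494401-106630800) or Fam84b and A1bg (chr15:60640801-60773200). In the widest region H3K27ac peaks numbered 1 and 8 in control and E1/E2-KO male liver and 6 and 6 in control and E1/E2-KO females. In the Ptprm region they numbered 1, 4, 0 and 4 in the same order, and in the Fhit region 1, 6, 2 and 4. The E1/E2-KO count was above the control count of the same sex in both sexes in the Ptprm, Fhit, Pecam1 and chr13:28581601-28689200 regions. Only in males was it higher in the widest region, in chr1:76824001-76985200 and in the Bmper region. Only in females was it higher in the region of Fam84b and A1bg. The Dab1 region had no H3K27ac peak in any list. The region chr1:76620801-76736400 had no H3K27ac peak in any list and a single H3K4me1 peak, in E1/E2-KO male liver.

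H3K27ac and H3K4me1 were then counted inside the lost regions of each group. H3K27ac peaks numbered 304 and 885 in control and E1/E2-KO male liver and 740 and 838 in control and E1/E2-KO females, which is 8.31, 24.2, 20.2 and 22.9 peaks per Mb. The control male value stands below the other three, and the control male H3K27ac list was also the shortest, with 28862 autosomal peaks beside 48858 to 55055 in the other lists. Inside lost regions the E1/E2-KO to control ratio was 2.91 in males and 1.13 in females, beside 1.91 and 1.03 over the whole autosomal lists. Kept regions had ratios of 2.73 and 1.16. The excess over the whole lists was thus found at both lost and kept regions, and the part of list length in the male ratio was not tested.

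For H3K4me1 the lists differed less. Its peaks inside lost regions numbered 1243 and 1334 in control and E1/E2-KO male liver and 1034 and 1054 in control and E1/E2-KO females, or 34.0, 36.5, 28.3 and 28.8 per Mb. The ratios were 1.07 in males and 1.02 in females, while the whole lists shortened, with ratios of 0.976 and 0.940. Kept regions gave 1.23 and 1.09, above the lost regions in both sexes.

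Counted by region, H3K27ac was present in 243 lost regions of control males (19.1%, 17.0 to 21.4%) and 461 of E1/E2-KO males (36.3%, 33.6 to 39.0%), and in 414 of control females (32.6%, 30.0 to 35.2%) and 437 of E1/E2-KO females (34.4%, 31.8 to 37.1%). The female intervals overlap. H3K4me1 was present in 48.1%, 50.5%, 43.3% and 45.6% in the same order, with overlapping intervals within each sex. Kept regions held a peak more often in every list, from 27.9% to 47.2% for H3K27ac and from 56.8% to 67.3% for H3K4me1. They were also wider.

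**Figure D2:**
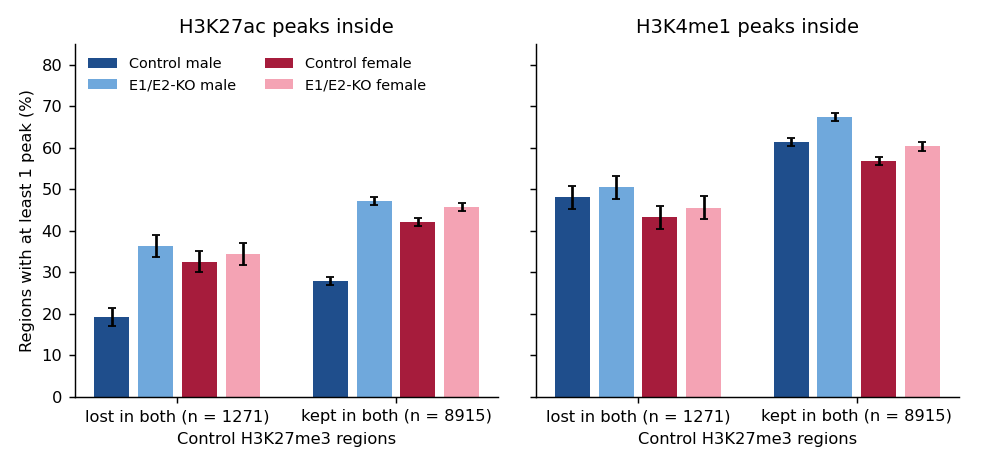
Bars give the percentage of regions with at least 1 H3K27ac (left) or H3K4me1 (right) peak in each of the 4 groups, for the 1271 lost and 8915 kept control regions, with exact 95% binomial intervals. For H3K27ac in lost regions, control male liver stands at 19.1% and the other groups between 32.6% and 36.3%.

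A comparison of the inside of a region with its own surroundings uses 1 list at a time. The part of list length in these ratios was not tested. Within 48 kb on either side of lost regions, control male H3K27ac peak midpoints had a density of 12.8 per Mb, and inside the regions 8.15 per Mb, a ratio of 0.636. In E1/E2-KO male liver the densities were 24.5 outside and 23.8 inside (0.971). In females they were 21.9 and 19.6 (0.896) for control and 23.1 and 22.6 (0.976) for E1/E2-KO. The inside thus stood lower than the surroundings in both control lists, most in males, and close to level in both E1/E2-KO lists. The H3K4me1 ratio went from 1.09 in control to 1.20 in E1/E2-KO males and from 1.13 to 1.19 in females. Kept regions, which overlapped both E1/E2-KO H3K27me3 lists by at least 1 bp, also had higher ratios in E1/E2-KO than in control liver. Their H3K27ac ratios were 0.341 in control and 0.536 in E1/E2-KO males and 0.477 and 0.535 in females. Their H3K4me1 ratios were 0.658 and 0.841 in males and 0.694 and 0.824 in females. For H3K27ac, lost regions stood nearer to their surroundings than kept regions in all groups, control liver included.

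**Figure D3:**
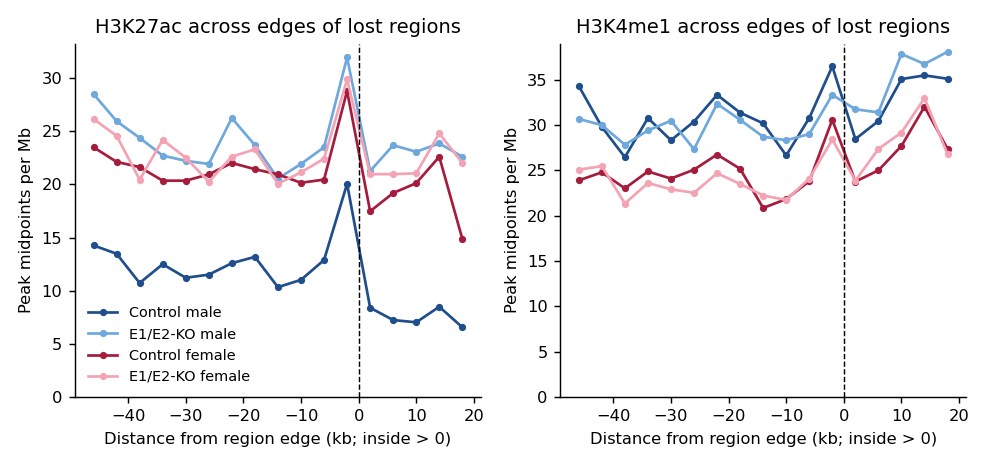
Lines give the density of H3K27ac (left) and H3K4me1 (right) peak midpoints per Mb in 4 kb bins, by distance in kb from the edge of lost regions (negative outside, positive inside, both edges combined, up to the middle of the region). H3K27ac was densest in the 4 kb outside the edge, from 20.1 per Mb in control male to 32.0 in E1/E2-KO male liver, and control male liver fell to 8.39 in the first 4 kb inside.

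Peaks of E1/E2-KO liver that overlapped no control peak of the same sex are called new. Among H3K27ac peaks inside lost regions, 625 of 885 were new in males (70.6%, 67.5 to 73.6%), beside a background of 54.6% of all autosomal E1/E2-KO male peaks. In females 327 of 838 were new (39.0%, 35.7 to 42.4%), beside a background of 24.9%. Kept regions had 67.9% and 38.2%, so new H3K27ac was above the background in both kinds of region and differed little between them. For H3K4me1, 398 of 1334 peaks were new in males (29.8%, 27.4 to 32.4%), beside a background of 29.3%, and 355 of 1054 in females (33.7%, 30.8 to 36.6%), beside 31.7%. Those shares are near the background, whereas kept regions had 37.2% (36.5 to 37.9%) in males and 35.5% (34.7 to 36.2%) in females. In the opposite direction, 40 of 304 control male H3K27ac peaks inside lost regions (13.2%) and 236 of 740 control female peaks (31.9%) had no E1/E2-KO counterpart, close to the 10.3% and 30.5% found over all shared regions.

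New H3K27ac in both sexes was found in 174 of the 1271 lost regions (13.7%, 11.8 to 15.7%), beside 19.3% of all shared regions. New H3K4me1 in both sexes was found in 142 (11.2%, 9.49 to 13.0%), beside 22%. Both shares lie below the background of all shared regions, most of which are wider. At like width the order varied for H3K27ac. Among regions of 20 to 40 kb, 14.6% of 642 lost regions (12 to 17.6%) and 10.4% of 2730 kept regions (9.32 to 11.6%) had new H3K27ac in both sexes. Among those of 40 to 80 kb the shares were 25.7% of 187 (19.6 to 32.6%) and 19.8% of 3162 (18.4 to 21.2%), with overlapping intervals, and at 80 kb or more 47.8% of 23 and 39.9% of 2362. The lost regions stood below the kept ones at 10 to 20 kb (4.84% and 5.97%) and under 10 kb (6.38% of 47 and 7.32% of 41). Only at 20 to 40 kb did the intervals not overlap. For H3K4me1 the lost regions stood above the kept ones at 10 to 20 kb (8.87% and 6.94%) and below them under 10 kb (8.51% and 12.2%), at 20 to 40 kb (9.66% and 11.6%), at 40 to 80 kb (18.2% and 22.2%) and at 80 kb or more (39.1% and 50.6%). When only the same number of widest peaks was taken from each list of a mark, 58 lost regions had new H3K27ac in both sexes (4.56%), and kept regions had 8.44%.

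Each region was also given a state from its peaks, as H3K27ac, H3K4me1 without H3K27ac, or neither. A total of 511 lost regions (40.2%) had neither mark in any of the 4 groups, 215 (16.9%) had H3K27ac in all, and 66 (5.19%) had H3K4me1 alone in all. Kept regions had neither mark in 26.1% and H3K27ac throughout in 26.0%. In male liver, 197 of the 382 lost regions with H3K4me1 alone in control liver had H3K27ac in E1/E2-KO liver, 147 kept H3K4me1 alone and 38 had neither. In female liver, 49 of 193 such regions had H3K27ac, 118 stayed and 26 had neither. From neither mark, 34 of 646 regions in males and 23 of 664 in females had H3K27ac in E1/E2-KO liver. H3K27ac was thus called anew in a larger share of the regions that had H3K4me1 alone in control liver than of the regions with neither mark, in both sexes. This was not particular to lost regions. From H3K4me1 alone, 51.6% of lost and 52.3% of kept regions had H3K27ac in E1/E2-KO males, and 25.4% and 32.3% in females. From neither mark the shares were 5.26% and 5.28% in males and 3.46% and 3.85% in females. On the autosomes, 28862 H3K27ac peaks were called in control males and 48858 in control females. How far list length and region width entered these shares was not tested. In reverse, 13 of 243 control male and 49 of 414 control female regions with H3K27ac had none in E1/E2-KO liver (5.35% and 11.8%), beside 2.45% and 9.09% of such kept regions.

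Loci called in both E1/E2-KO lists and in neither control list were the strictest form of new H3K27ac. Lost regions held 137 of them in 109 regions (8.58%, 7.09 to 10.3%), and the 1486 loci of kept regions lay in 1114 regions (12.5%, 11.8 to 13.2%). Per Mb the order was the opposite, with 3.74 in lost and 2.38 in kept regions, which were not compared at like width. All E1/E2-KO H3K27ac peaks were likewise denser in lost regions (24.2 per Mb in males and 22.9 in females) than in kept regions (17.5 and 16.3). At 20 to 40 kb these densities were close, with 22.4 and 22.2 in males and 21.7 and 20.6 in females. At 10 to 20 kb they were 29.2 and 28.1 in males and 26.1 and 27.7 in females. Lost regions stood higher at 40 to 80 kb, with 23.1 and 18.9 in males and 20.1 and 17.6 in females. Only 8 of the 137 (5.84%, 2.55 to 11.2%) lay within 1 kb of a protein-coding transcript start, beside 21.7% (19.6 to 23.9%) of the loci in kept regions. At 106 of the 137 (77.4%, 69.4 to 84.1%) H3K4me1 had been called in at least one control list, beside 73.1% in kept regions. The same count for H3K4me1 was 79 loci in 73 lost regions (5.74%, beside 13.7% of kept regions), or 2.16 per Mb, beside 2.42 in kept regions. The regions of Pecam1, Tgfbr3, Sgms1 (sphingomyelin synthase), Mcc, Ano10 and Efcab9 with Stk10 had 3 loci of new H3K27ac each. Apart from Pecam1, these genes are named after their values were seen.

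Pecam1, the endothelial adhesion molecule also known as CD31, lay in the lost region with the most new H3K27ac peaks. The gene (ENSMUSG00000020717.11) lies on the minus strand from chr11:106515531-106611942, wholly inside the region. Control male liver had 1 H3K27me3 region of 136000 bp there and control female liver 5 regions covering 109600 bp, and the nearest E1/E2-KO region was 245600 bp away. H3K27ac peaks in the region numbered 4 and 13 in control and E1/E2-KO male liver and 8 and 13 in control and E1/E2-KO females, of which 11 and 8 were new in E1/E2-KO male and female liver. The E1/E2-KO lists thus had more peaks than control in both sexes. For H3K4me1 the numbers were 9, 11, 7 and 3 in control male, E1/E2-KO male, control female and E1/E2-KO female liver, higher in E1/E2-KO than in control males and lower in females. No list had H3K27ac within 1 kb of the start of Pecam1, while H3K4me1 was called there in both E1/E2-KO lists and in neither control list. Just beyond that limit, both female lists had an H3K27ac peak. It lay at -1.636 to -1.271 kb from the start in control and at -1.607 to -1.333 kb in E1/E2-KO females.

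**Figure D4:**
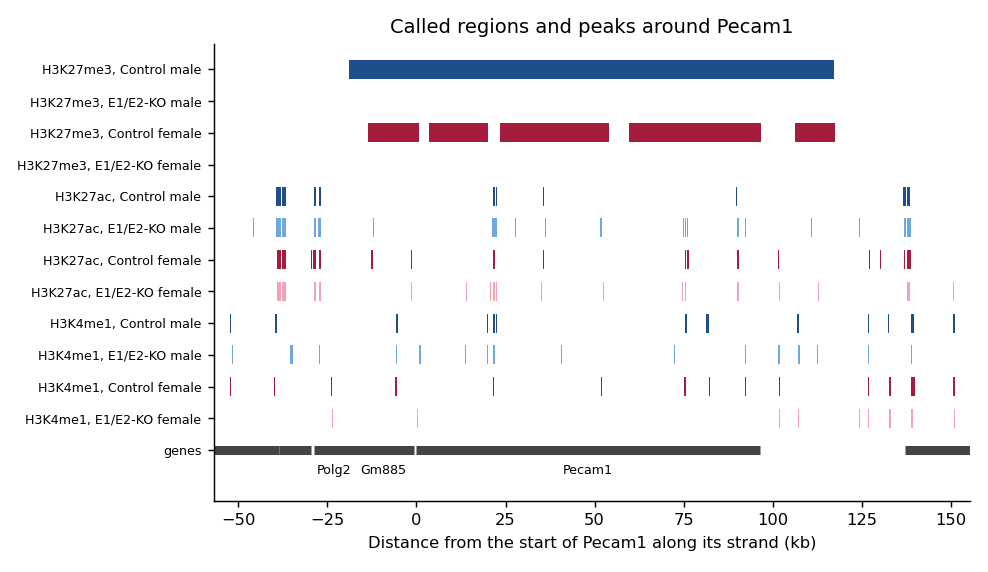
The map shows the called H3K27me3 regions and H3K27ac and H3K4me1 peaks of each group around Pecam1, by distance in kb from the gene start along its strand, with protein-coding genes at the bottom. H3K27me3 covers the gene in both control lists, in 1 piece in males and 5 in females, and is called nowhere in the window in the E1/E2-KO lists, where 13 H3K27ac peaks of each sex fall in the lost region.

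Stab1, a scavenger receptor of sinusoidal endothelial cells (chr14:31952199-31981827, minus strand), was likewise wholly inside a lost region, of 41600 bp. H3K27ac peaks in the region numbered 1 and 3 in control and E1/E2-KO male liver and 1 and 3 in control and E1/E2-KO females, and H3K4me1 peaks 2, 2, 2 and 1. H3K27ac lay within 1 kb of the start of Stab1 in all lists except control male. Pecam1 and Stab1 were the 2 of 30 endothelial markers that started in a lost region (6.67%, 0.818 to 22.1%), an interval that holds the 1.49% of all protein-coding gene records. Of the 30, 18 (60%) started in kept regions, beside 32.3% of all protein-coding gene records. Of the 30 endothelial starts, H3K27ac was called within 1 kb of 2 in control and 17 in E1/E2-KO males, and of 15 in control and 19 in E1/E2-KO females. The shares over all protein-coding starts were 45.6% and 52.6% in control and E1/E2-KO males and 51.6% and 52.2% in control and E1/E2-KO females. In the same order H3K27ac was called at 12, 15, 15 and 16 of the 17 hepatocyte gene records, at 1, 2, 6 and 2 of 21 Kupffer cell and macrophage markers, and at 1, 5, 4 and 4 of 21 stellate cell markers. It was called at 0, 1, 2 and 0 of 20 lymphocyte markers and at 4, 5, 5 and 5 of 12 cholangiocyte markers. No list had a lower count in another group than in control male liver, as over all starts, whereas the female counts were higher in E1/E2-KO than in control liver for endothelial and hepatocyte genes, lower for Kupffer cell and lymphocyte markers and equal for the others. The part of endothelial cells in these values was not tested.

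Ptprc, the leukocyte antigen CD45, was the only one of 21 Kupffer cell and macrophage markers to start in a lost region (4.76%, 0.120 to 23.8%), which was 33200 bp wide and reached 4.16% of the gene. H3K27ac numbered 0, 0, 2 and 0 peaks there in control male, E1/E2-KO male, control female and E1/E2-KO female liver, and H3K4me1 had none in any list. None of the 16 hepatocyte, 21 stellate cell, 20 lymphocyte and 12 cholangiocyte markers started in a lost region. With so few genes in each list, all of these intervals hold the 1.49% of all protein-coding gene records. Kept regions held the starts of 17 stellate cell (81.0%), 15 lymphocyte (75%) and 11 cholangiocyte markers (91.7%), beside 32.3% of all protein-coding gene records. They also held 11 Kupffer cell and macrophage markers (52.4%) and 0 hepatocyte markers.

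Genes expressed more in female than in male liver were present among the lost regions. Of 21 female-biased genes listed by hand, 3 started in a lost region. That list holds genes that the study names in connection with these data, so the count is a description and is not set against other genes. A1bg, a plasma glycoprotein (chr15:60749144-60752825), shared its region of 132400 bp with Fam84b. The control male list covered all of it, and the control female list 38400 bp. H3K27ac peaks numbered 1 and 1 in control and E1/E2-KO male liver and 5 and 6 in control and E1/E2-KO females, so the male E1/E2-KO list did not gain any. H3K27ac lay within 1 kb of the A1bg start in both female lists and in neither male list, and within 1 kb of the Fam84b start in all lists.

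Sult2a6 (chr7:14807730-14840216) was wholly inside a lost region of 34000 bp. H3K27ac numbered 0 peaks in both male lists and 1 in both female lists, and H3K4me1 numbered 1 and 0 in control and E1/E2-KO male liver and 2 and 0 in control and E1/E2-KO females. Hao2, a hydroxyacid oxidase (chr3:98678500-98697162), lay in a region of 32400 bp, of which 31600 bp was covered in the control female list. H3K27ac numbered 0, 0, 2 and 1 peaks and was called at the start in both female lists only. The male H3K27ac count was thus the same in control and E1/E2-KO liver at A1bg, Sult2a6 and Hao2. Other genes that the study lists as female-biased, named after their values were seen, varied. In the regions of Gbp7, Gbp3, Oasl2, Prc1, Ctsc and Cyba the male H3K27ac count was 1 in both control and E1/E2-KO liver. It was 0 and 2 in control and E1/E2-KO male liver at Rassf4, and 1 and 3 at Lig1. The counts were not tallied over all such genes. A higher count in E1/E2-KO males was also found at Cyp3a16 and Hsd3b1. Cyp3a16, a cytochrome P450 of the hand list, started outside the lost regions but had 64.7% of its span in a pair of them. H3K27ac peaks in the one of 22000 bp numbered 0 and 2 in control and E1/E2-KO male liver and 0 and 4 in control and E1/E2-KO females, and in the one of 14400 bp 0, 0, 0 and 1 in the same order. Hsd3b1, a steroid dehydrogenase gene beside Hao2, is named after its values were seen. H3K27ac peaks in its region numbered 0, 3, 3 and 3 in the same order, and the 3 peaks of E1/E2-KO males were new.

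Cyp2b10, a cytochrome P450 induced by xenobiotics, likewise had more peaks in E1/E2-KO than in control males. Its span (chr7:26682639-26711643) lay wholly in a lost region of 34800 bp, fully covered in the control male list and over 10800 bp in the control female list. H3K27ac peaks numbered 0 and 3 in control and E1/E2-KO male liver and 4 and 4 in control and E1/E2-KO females, and H3K27ac was called within 1 kb of the start in all lists except control male. Cyp2b19 (region of 38000 bp) had 0, 2, 3 and 3 H3K27ac peaks in its region, none within 1 kb of its start. Cyp2j12 had no peak of either mark in its region of 12400 bp in any list. These were the 3 of 73 genes of cytochrome P450 families 2, 3 and 4 with a start in a lost region (4.11%, 0.856 to 11.5%, an interval that holds the background of 1.49%), and they are named after their values were seen.

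The study's own list of sex-biased genes was chosen on RNA of matched livers and is thus not independent evidence of direction. Of 583 female-biased genes, 26 started in a lost region (4.46%, 2.93 to 6.47%), beside 1.5% over all gene symbols. Of 445 male-biased genes, 3 did (0.674%, 0.139 to 1.96%), an interval that holds the 1.5%. Kept regions held the starts of 187 female-biased genes (32.1%) and 63 male-biased genes (14.2%), beside 32.3% over all gene symbols. Male-biased genes thus started less often in kept regions as well. The 26 female-biased genes include the endothelial markers Pecam1 and Stab1 and the leukocyte marker Ptprc, and they fell in 25 lost regions. The control male list covered a median of 100% of these regions and the control female list 61.5%, and the covered length was greater in males in 22 of the 25. In the 231 lost regions with the start of another protein-coding gene the female list covered a median of 78.3%, and 170 were covered more in males. The shares covered more in males were 88% of the 25 and 73.6% of the 231. The first set is small, no interval was computed for these shares, and their difference was not tested. The male-biased genes, all 3 named, were Mup5, Eif4g3 and Ttc39c. Besides those described above, the female-biased genes, named after their values were seen, included Colec10, Arhgap31, Robo1 and Rarb.

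Across all 21418 protein-coding gene records, 320 started in a lost region (1.49%) and 6919 (32.3%) in a kept one. A total of 210 genes (0.98%) had at least 50% of their span in lost regions, and 124 lay wholly inside. The longest of the 210 were Pip4k2a, named like the next genes after their values were seen (50.3% of 155872 bp), Lrrk2 (55.7% of 142946 bp) and Rab31 (52.0% of 121027 bp). Families that are classical Polycomb targets lay mostly in kept regions. None of 187 developmental transcription factors, 39 Wnt and Fgf ligands and 41 collagens started in a lost region, while 167, 36 and 37 of them started in kept regions. Of 92 potassium channels, 1 (Kcnk6, named after its value was seen) started in a lost and 80 in kept regions. At a background of 1.49%, the counts of these lists in lost regions cannot be told apart from those of other genes, since each exact interval holds that value. Olfactory and vomeronasal receptors gave 6 of 1399 (0.429%, 0.158 to 0.931%), below the background. They also started less often in kept regions, with 124 (8.86%) beside 32.3% of all gene records, so the low share was not particular to lost regions. Chemokines and their receptors gave 2 of 55, Ccr1 and Ccr3, named for their small number after their values were seen. Sulfotransferases and UDP-glucuronosyltransferases gave 1 of 37, and ribosomal proteins, which are active in all cells, gave 0 of 69.

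**Figure D5:**
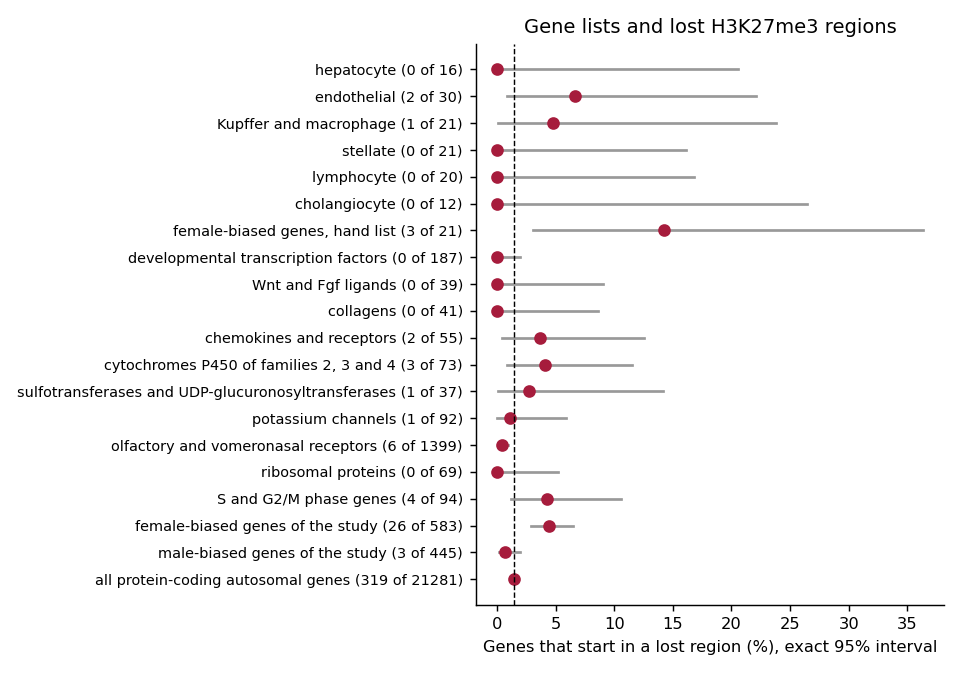
Points give the percentage of the genes of each list that start in a lost region, with exact 95% intervals as lines, the count beside each name and the value over all protein-coding genes (1.5%) as a dashed line. Developmental transcription factors stand at 0 of 187 and the study's female-biased genes at 26 of 583.

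H3K27ac at the 320 gene starts followed a few patterns. It was called within 1 kb of the start in all 4 lists at 123 (38.4%, 33.1 to 44.0%) and in none at another 123. In kept regions the shares were 21.2% and 58.7%, and over all genes 44.9% and 44.5%. At 39 starts (12.2%, 8.81 to 16.3%) H3K27ac was missing in control male liver only, beside 7.4% in kept regions and 4.13% over all genes. The 5 starts with H3K27ac in both E1/E2-KO lists and in neither control list (1.56%, 0.509 to 3.61%) were near the background of 1.31% of all starts, and kept regions had 3.09%. As given above, other processing choices put this count at 2 to 8.

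Those 5 genes lay in 4 lost regions. In the region of Hnf4g (chr3:3494801-3518400), which reached 6.83% of the gene, H3K27ac numbered 0 and 2 in control and E1/E2-KO male liver and 0 and 2 in control and E1/E2-KO females, while H3K4me1 numbered 2 in every list. Hist1h1b and Hist1h3i shared a region of 16400 bp in a histone gene cluster (chr13:21868401-21884800), covered over 16400 and 16000 bp in the male and female control lists. H3K27ac peaks there numbered 1, 4, 1 and 3 in the same order, with both E1/E2-KO lists above both control lists. Histone genes are near-identical copies, and reads that map to several of them could be placed at any copy. In the region of Ank3 (31200 bp, 4.75% of the gene) H3K27ac numbered 0, 1, 1 and 1, and in that of 2310014H01Rik (21200 bp) 0, 3, 4 and 5.

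A few further genes were singled out after their values were seen. Ezh1 itself, which is disrupted in E1/E2-KO mice, had its start in a lost region (chr11:101087201-101114400) that reached 1.63% of the gene, and H3K27ac was called at that start in all lists. H3K27ac peaks in the region numbered 3 and 7 in control and E1/E2-KO male liver and 9 and 4 in control and E1/E2-KO females, so the sexes went in opposite directions. Genes of cell division were also found, and a list of 94 S and G2/M phase genes, added after the data were seen, had 4 with a start in a lost region (4.26%, 1.17 to 10.5%), with the background inside the interval. They were Anln and Kif11, which act in cytokinesis and on the spindle, the histone chaperone gene Chaf1b and the phosphatase gene Cdc25c. H3K27ac was called at the starts of Anln, Kif11 and Chaf1b in all lists and at that of Cdc25c in none. Vim, the intermediate filament of mesenchymal cells, was wholly inside a lost region of 14800 bp and had H3K27ac at its start in all lists except control male.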

How the data were processed

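Livers of control and E1/E2-KO mice were analysed by ChIP-seq. Per the labels and the study's methods, the authors concatenated the reads of a group, mapped them to mm9 with Bowtie2 2.3.2 and called peaks. SICER 1.1 was used for H3K27me3, with windows of 400 bp and gaps of up to 2400 bp, and MACS2 2.1.1 for H3K27ac and H3K4me1. The 12 deposited lists, 1 per mark and group, hold chromosome, start, end and name, and no score, count or depth, so the depth is unknown and no list has a replicate. The unit of the values used is a base position.

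Autosomal peaks were used. Starts were read as counted from 0, and 1 base was added to SICER ends, which lie 1 base before a window end. Overlap meant at least 1 bp. A gene start is the 5′ end of a protein-coding gene record of GENCODE M1 (NCBIM37, which is mm9). Shares have exact (Clopper-Pearson) 95% intervals from SciPy 1.17.1, with Python 3.11.15, NumPy 2.4.6, pyfaidx 0.9.0.4 and matplotlib 3.10.9. Classification and new peaks were tested on simulated lists. The members and gene lists were chosen with earlier results of these data known.

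Named genes start in a lost region. They are on a marker list or the hand list of female-biased genes, or lie in the 10 widest regions. Others have H3K27ac at the start in both E1/E2-KO lists and no control list. Other genes are named after their values were seen. The study's sex-biased genes were matched by symbol. Alternatives concerned the overlap, merging, width and agreement of regions, the peaks used, the promoter window and the gene start.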

Additional observations from a re-analysis of the deposited data

Results flagged for a closer look

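In 2 of the regions named by rule, the E1/E2-KO and control lists differed in opposite directions in the sexes, for H3K4me1. The rule covers the hand list of female-biased genes and not the study's own list. Regions of genes on the study's list, such as Gbp7 and Prc1, also differed in opposite directions and are not counted here. The region of Pecam1 had 2 more H3K4me1 peaks in E1/E2-KO than in control male liver and -4 in female liver, a difference of 6 between the sexes. The region of 2310014H01Rik had -1 in males and 1 more in females, a difference of -2. These differences were not tested, since each value comes from a single pooled list, and the second rests on single peaks.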

How the results depend on the processing

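Of 50 combinations of a result and an alternative, 42 stayed within 1.5 times the main count or, for the share of regions lost, within its 95% interval. The number of lost regions ranged from 1028 to 1304 and the number with a protein-coding gene start from 205 to 325. The share of shared regions lost was 9.50% when lost regions with an E1/E2-KO region within 5 kb were left out and 9.71% when each control list had to cover at least 50% of the region, beside 10.7%. With the widest 50% of each H3K27ac and H3K4me1 list, 63 lost regions had new H3K27ac and 76 new H3K4me1 in both sexes, beside 174 and 142. When every list of a mark gave the same number of widest peaks, 58 had new H3K27ac. Fewer peaks entered in both settings. Gene starts with new H3K27ac numbered 5, and 3 with at least 50% control coverage, 2 with the same number of widest peaks and 8 with every transcript start. The cause was not tested. Counting a peak as new against both control lists, an alternative added after seeing the data because the control male H3K27ac list is short, left 140 regions with new H3K27ac and 102 with new H3K4me1. New H3K27ac in both sexes was found in 4.96% of lost and 8.91% of all shared regions with the widest 50%. With the same number of widest peaks the shares were 4.56% and 7.51%, and against both control lists 11.0% and 16.2%. For new H3K4me1 they were 5.98% and 14.2%, 10.1% and 21.7%, and 8.03% and 16.9% in the same order. In all settings of the peak lists the share was lower in lost than in kept regions for both marks, before width was matched. No replicate could be left out and no paired analysis was possible because the livers of a group were pooled before peaks were called. Without scores or depths, a region outside a list is one that was not called, which is not the same as absence of the mark.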
